A study of Homo sapiens with 8 samples.

Results

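The mitotic kinesin motors are described here through 10 genes, KIF11, KIF15, KIFC1, KIF2C, KIF18A, KIF18B, KIF4A, KIF23, KIF20A and KIF14. They were taken by name from both deposited tables, where each has 1 row on the main chromosomes among 42970 gene rows for MCF10A and 43004 for the NOTCH1 line. MCF10A is an immortalized, non-tumorigenic human mammary epithelial line. The NOTCH1 line is MCF10A that, per the labels, overexpresses the intracellular domain of NOTCH1, the part of the receptor that enters the nucleus when Notch is active. The sources used here give neither the vector and its promoter nor whether the line is a clone. Both lines grew in the same serum-containing medium with insulin, cholera toxin, epidermal growth factor and hydrocortisone. Each was kept for 3 days in 30 µM ginkgolic acid, which blocks SUMO conjugation, or in the solvent DMSO, with 2 samples in each of the 4 groups.

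The tables give 1 FPKM value per gene and group. The spread between samples is therefore unknown and nothing below was tested. "Higher" and "lower" describe the group values only. Levels set side by side across the lines carry an unknown factor between the tables. NOTCH1 itself was at 5.03 FPKM in the NOTCH1-labelled and 11.4 FPKM in the MCF10A DMSO group, which goes against the label, and at 12.4 and 6.18 FPKM with ginkgolic acid. The value is for the full gene and cannot tell the intracellular domain apart, so the line is called NOTCH1-labelled. Of 7 basal and epithelial markers, EPCAM, CDH1, KRT8 and KRT18 were between 39.2 and 328 FPKM in all 4 groups. The basal markers KRT14, between 5.68 and 24.0 FPKM, and TP63, between 8.53 and 20.5, were lower in level, and in MCF10A both had lower values with ginkgolic acid, at log2 ratios of −1.94 and −1.27. KRT5 was at 614 FPKM under ginkgolic acid and 990.2 in DMSO in NOTCH1-labelled cells and was not analysed in MCF10A.

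Kinesins are motor proteins that turn ATP hydrolysis into movement along microtubules or into the removal of tubulin from their ends. Mitotic kinesins build the bipolar spindle, align chromosomes and organize the midzone and midbody at cytokinesis, and their transcripts peak in G2 phase and mitosis in cycling cells. In bulk RNA, a larger share of cells in these phases and more RNA per cell cannot be told apart. Many promoters active in G2 and mitosis carry a cell cycle homology region (CHR) with the core TTTGAA, which the DREAM and MuvB complexes contact, near CCAAT boxes, which bind NF-Y.

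All 10 genes had a promoter window in RefSeq (GRCh38.p14), from 250 bases before to 50 bases after the start. The windows describe the genes, and a link of their motifs to the ratios given below was not tested. The 110 bases before the start follow for 7 genes, 5′ to 3′ on the gene's strand, with TTTGAA and CCAAT matches of either strand in capitals (TTCAAA and ATTGG are the reverse complements). The stretches lie at chr10:92593020-92593129 (plus strand) for KIF11, chr3:44761684-44761793 (plus strand) for KIF15, chr11:28108157-28108266 (minus strand) for KIF18A, chrX:70289994-70290103 (plus strand) for KIF4A, chr15:69414239-69414348 (plus strand) for KIF23, chr5:138179002-138179111 (plus strand) for KIF20A and chr1:44739727-44739836 (plus strand) for KIF2C.
KIF11: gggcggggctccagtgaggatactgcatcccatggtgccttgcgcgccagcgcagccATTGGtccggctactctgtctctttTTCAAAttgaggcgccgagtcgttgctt
KIF15: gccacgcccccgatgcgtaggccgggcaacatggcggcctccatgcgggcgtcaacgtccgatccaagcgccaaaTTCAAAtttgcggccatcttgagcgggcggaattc
KIF18A: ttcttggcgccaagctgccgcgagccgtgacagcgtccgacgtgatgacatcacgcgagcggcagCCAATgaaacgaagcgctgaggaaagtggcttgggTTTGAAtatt
KIF4A: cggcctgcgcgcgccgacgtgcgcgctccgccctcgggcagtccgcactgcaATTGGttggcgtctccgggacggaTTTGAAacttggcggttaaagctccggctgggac
KIF23: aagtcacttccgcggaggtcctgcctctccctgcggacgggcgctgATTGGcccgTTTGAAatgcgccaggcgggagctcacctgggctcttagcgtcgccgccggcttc
KIF20A: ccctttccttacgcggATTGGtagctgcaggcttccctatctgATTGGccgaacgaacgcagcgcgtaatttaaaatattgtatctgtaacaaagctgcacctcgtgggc
KIF2C: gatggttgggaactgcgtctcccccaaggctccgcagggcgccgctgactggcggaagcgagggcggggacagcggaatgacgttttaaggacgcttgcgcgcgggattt

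TTTGAA was in the windows of 8 of the 10 genes, against 15.2% of 34943 RefSeq promoter windows of the same length. CCAAT was in 8 of 10, against 34.6%. The other spelling of the CHR searched, TTCGAA, was in 0 of 10, against 1.45%. Both a CHR spelling and CCAAT were found in 7 of 10, against 6.4%. TTTGAA began 28 bases before the start in KIF11, 35 in KIF15, 10 in KIF18A, 34 in KIF4A and 55 in KIF23. In KIF14, KIF18B and KIFC1 it lay just after the start, and is not printed. The nearest CCAAT and TTTGAA matches were separated by 20 bases in KIF11, 19 in KIF4A, 18 in KIF14, 30 in KIF18A, 29 in KIF18B, 45 in KIFC1 and 4 in KIF23, so no pair overlapped. KIF20A had a pair of CCAAT matches and no TTTGAA, and KIF2C had neither. Of the E2F spellings searched, TTTGGCG was found in KIF11 and KIF15. TTTCCCG was found in 0 of the 10, as was the spelling TTTCGCG, so that 2 of 10 windows held any of these, against 7.18%. In KIF15 the E2F spelling directly adjoined TTTGAA. These are letter matches in a fixed window and not shown binding sites.

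Each of the 10 kinesins was higher with ginkgolic acid than with DMSO in both lines. In MCF10A the folds ran from 1.44 for KIFC1 to 6.77 for KIF18A, with a median of 2.83. In NOTCH1-labelled cells they ran from 3.97 for KIFC1 to 89.8 for KIF20A, with a median of 8.91. KIFC1 thus had the lowest fold in both lines, whereas different genes had the highest. Summed over the 10 genes, FPKM was 163 under ginkgolic acid and 47.0 in DMSO in MCF10A, a ratio of 3.47. The sums were 423 and 24.6 in NOTCH1-labelled cells, a ratio of 17.2.

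**Figure D1:**
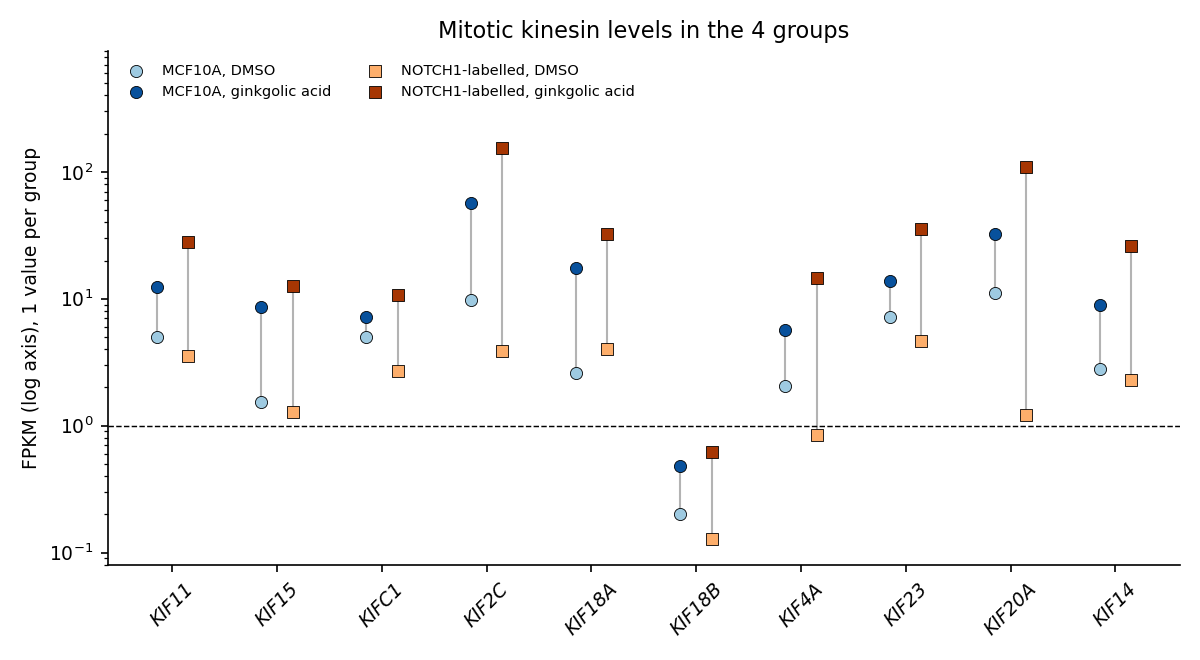
FPKM (log axis) of each kinesin in the 4 groups, with circles for MCF10A, squares for NOTCH1-labelled cells, light symbols for DMSO and dark symbols for ginkgolic acid. Each grey line joins the groups of one line, the dashed line marks 1 FPKM, and every dark symbol lies above its light partner, with the longest line for KIF20A (1.21 to 109 FPKM) in NOTCH1-labelled cells.

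At least 1 FPKM in either group was reached by 9 of the 10 members, all but KIF18B. In MCF10A 7 of these 9 were at least 2-fold higher and 0 were lower by that much, where 24.3% of 17714 genes were at least 2-fold higher and 15.2% lower. In NOTCH1-labelled cells all 9 were at least 2-fold higher, where 18.9% of 19582 genes were higher and the same share lower. KIF4A reached the minimum there through the ginkgolic acid group alone and so could only be higher. With at least 1 FPKM required in both groups, the counts were 7 of 9 in MCF10A, against 11.7% of genes, and 8 of 8 in NOTCH1-labelled cells, against 15.6%. At least 4-fold higher were 3 members in MCF10A (KIF18A, KIF2C and KIF15), against 9.23% of genes, and 8 in NOTCH1-labelled cells (all measured members but KIFC1), against 5.52%. The members' median log2 ratio was 1.55 in MCF10A and 3.29 in NOTCH1-labelled cells, and that of all measured genes was 0.07 and 0.06. Where both groups reached 1 FPKM, the median gene lay at −0.11 and 0.14. Relative to it, the medians of all 9 measured members, KIF4A among them, were 1.65 and 3.15. The 8 members at 1 FPKM in both NOTCH1-labelled groups had a median log2 ratio of 3.148 before the median gene was removed.

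KIF11, KIF15 and KIFC1 act on spindle poles. KIF11 (chromosome 10, 94353042 to 94415150, hg19), also called Eg5, is a kinesin-5 tetramer that slides antiparallel microtubules apart and separates the poles. It was at 12.4 FPKM under ginkgolic acid and 4.97 in DMSO in MCF10A, and at 27.8 and 3.57 in NOTCH1-labelled cells, which gives 2.49-fold and 7.79-fold. KIF15 (chromosome 3, 44803208 to 44914868), a kinesin-12 that can keep a bipolar spindle when KIF11 is blocked, was at 8.57 and 1.52 FPKM in MCF10A and at 12.6 and 1.29 in NOTCH1-labelled cells. Its folds were 5.63 and 9.80, so KIF15 had a larger ratio than KIF11 in both lines but a lower level in all 4 groups. TMEM42, which overlaps KIF15 on the same strand by GENCODE, was also higher, at 95.3 and 9.13 FPKM in MCF10A and 10.1 and 4.70 in NOTCH1-labelled cells. Whether its reads enter the KIF15 value was not tested.

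KIFC1 (chromosome 6, 33359312 to 33377701), a kinesin-14 that walks to microtubule minus ends and gathers poles and extra centrosomes, had the smallest ratios. It was at 7.15 FPKM under ginkgolic acid and 4.96 in DMSO in MCF10A, 1.44-fold, and at 10.7 and 2.69 in NOTCH1-labelled cells, 3.97-fold. KIFC1 also has 3 rows on alternative chromosome 6 haplotypes, all listed at 0 in all groups. In MCF10A under DMSO, KIFC1 and KIF11 were nearly level (4.96 and 4.97 FPKM), and with ginkgolic acid KIF11 was the higher gene in both lines.

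KIF2C, KIF18A and KIF18B act at microtubule ends. KIF2C (chromosome 1, 45205489 to 45244451), also called MCAK, is a kinesin-13 that removes tubulin from both ends and corrects faulty kinetochore attachments. It was at 56.4 FPKM under ginkgolic acid and 9.69 in DMSO in MCF10A, 5.82-fold, and at 154 and 3.89 in NOTCH1-labelled cells, 39.5-fold. It was the most abundant member in both ginkgolic acid groups.

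KIF18A (chromosome 11, 28042166 to 28355054), a kinesin-8 that dampens chromosome oscillations at the metaphase plate, was at 17.6 FPKM under ginkgolic acid and 2.59 in DMSO in MCF10A. It was at 32.1 and 4.001 FPKM in NOTCH1-labelled cells. The folds of 6.77 and 8.02 were the most alike between the lines among the 10 genes. The row of KIF18A covers METTL15 on the opposite strand, which was less than 2-fold higher in both lines, at 15.6 and 8.80 FPKM and at 26.2 and 14.8.

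KIF18B (chromosome 17, 43003359 to 43025082), a kinesin-8 that works with KIF2C on astral microtubules, was under 1 FPKM in every group. It was at 0.485 and 0.202 FPKM in MCF10A and at 0.618 and 0.128 in NOTCH1-labelled cells. Olfactory receptor genes, mostly silent outside sensory neurons and chosen as a yardstick after these values were seen, had mean levels of 0.562 and 0.244 FPKM in the MCF10A groups and 0.368 and 0.592 in the NOTCH1-labelled groups. Of 384 such genes, 90 lay at or above KIF18B with ginkgolic acid in NOTCH1-labelled cells and 320 with DMSO. KIF18B was therefore at the level of silent genes in 3 groups and somewhat above their mean in the fourth, and its folds of 2.41 and 4.84 rest on values under the minimum.

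KIF4A (chromosome X, 69506317 to 69640682), a chromokinesin on chromosome arms that also limits the length of the anaphase midzone, was at 5.65 FPKM under ginkgolic acid and 2.06 in DMSO in MCF10A. It was at 14.7 and 0.846 FPKM in NOTCH1-labelled cells. The folds were 2.74 and 17.3. Under DMSO in NOTCH1-labelled cells, 84 of 384 olfactory receptor genes were at or above KIF4A, and 0 were in the other groups, so the larger fold starts from a level near that of silent genes. KIF4B, an intronless copy of KIF4A whose reads may not be separable from it, was between 0.151 and 0.357 FPKM. PRC1, the midzone bundling protein that binds KIF4A, was at 141 and 39.7 FPKM in MCF10A and at 362 and 30.9 in NOTCH1-labelled cells.

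KIF23, KIF20A and KIF14 act in cytokinesis. KIF23 (chromosome 15, 69591285 to 69740764), also called MKLP1, is the motor of centralspindlin, with RACGAP1 as its partner. It was at 13.7 FPKM under ginkgolic acid and 7.15 in DMSO in MCF10A, a log2 ratio of 0.94 that becomes 1.05 relative to the median gene and so crosses 2-fold. In NOTCH1-labelled cells it was at 35.6 and 4.68 FPKM, 7.60-fold. RACGAP1 had similar ratios, with 44.6 and 22.5 FPKM in MCF10A and 145 and 24.3 in NOTCH1-labelled cells, and log2 ratios of 0.99 and 2.58.

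KIF20A (chromosome 5, 137475454 to 137549032), also called MKLP2, brings the chromosome passenger complex to the midzone. It was at 32.2 FPKM under ginkgolic acid and 11.0 in DMSO in MCF10A, 2.92-fold. In NOTCH1-labelled cells it was at 109 and 1.21 FPKM, 89.8-fold, the widest gap of the 10 genes. This DMSO value lay close to the minimum of 1 FPKM, so the size of the fold is uncertain. With 1 FPKM added to both values, the log2 ratio was 5.63 in place of 6.49. Placed among the 11806 genes that reached 1 FPKM in every group, KIF20A lay at the 49.0th percentile in MCF10A under DMSO and the 77.2nd with ginkgolic acid. The positions in NOTCH1-labelled cells were 1.06 and 90.3. BRD8 and CDC23, which flank and overlap KIF20A on the opposite strand, were less than 2-fold apart in both lines. BRD8 was at 71.9 and 53.4 FPKM in MCF10A and 170 and 105 in NOTCH1-labelled cells, and CDC23 at 27.1 and 24.9 and at 38.9 and 27.3.

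KIF14 (chromosome 1, 200520627 to 200589862) binds citron kinase and PRC1 at the midbody. It was at 8.999 FPKM under ginkgolic acid and 2.79 in DMSO in MCF10A, 3.23-fold, and at 26.2 and 2.30 in NOTCH1-labelled cells, 11.4-fold. CIT, the gene of citron kinase, was at 18.3 and 4.06 FPKM in MCF10A and at 33.3 and 7.81 in NOTCH1-labelled cells. Its log2 ratios of 2.17 and 2.09 were alike in the lines, whereas those of KIF14 were 1.69 and 3.51. PRC1, RACGAP1 and CIT were named after their values were seen.

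The order of the 10 levels differed between groups. Under DMSO in MCF10A the highest were KIF20A at 11.0 FPKM, KIF2C at 9.69 and KIF23 at 7.15. Under DMSO in NOTCH1-labelled cells they were KIF23 at 4.68, KIF18A at 4.001 and KIF2C at 3.89, with KIF20A eighth. With ginkgolic acid KIF2C and KIF20A ranked highest in both lines, and KIF18B was lowest in all 4 groups. Leaving out KIF18B, the most and least abundant genes were 7.24-fold apart in MCF10A and 5.53-fold in NOTCH1-labelled cells under DMSO, and 9.98-fold and 14.4-fold with ginkgolic acid. No spread over samples is known, so whether neighbours in these orders differ cannot be said.

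A share of the summed kinesin FPKM does not depend on a factor between the tables. KIF2C and KIF20A together made up 44.1% of the sum in MCF10A under DMSO and 54.3% with ginkgolic acid, and 20.7% and 62.1% in NOTCH1-labelled cells. KIF20A alone was at 23.5% and 19.7% in MCF10A and at 4.93% and 25.8% in NOTCH1-labelled cells. The shares of KIFC1 went from 10.6% to 4.38% and from 10.9% to 2.52%, and those of KIF23 from 15.2% to 8.43% and from 19.0% to 8.42%. KIF18A went from 5.52% to 10.8% in MCF10A and from 16.3% to 7.59% in NOTCH1-labelled cells. In percentage points, the share of KIF2C was closer between the lines with ginkgolic acid (34.6% and 36.3%) than with DMSO (20.6% and 15.8%). The same held for KIF20A, KIF18A, KIF11, KIF23, KIF14 and KIF4A, but not for KIFC1, KIF15 or KIF18B.

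**Figure D2:**
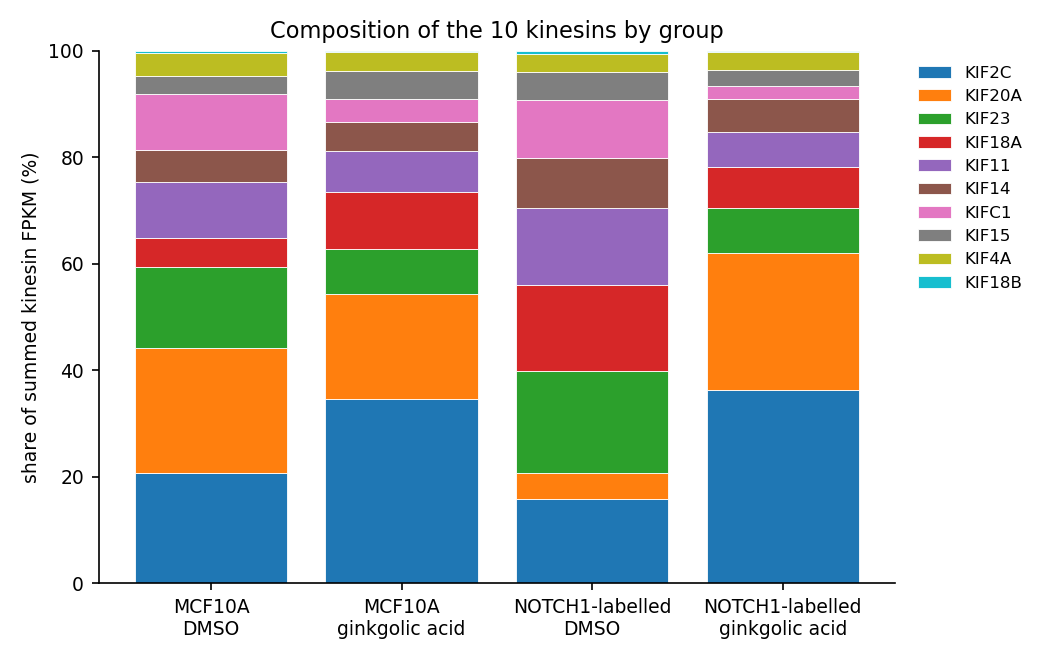
Share (%) of each kinesin in the summed FPKM of the 10 genes, 1 bar per group. KIF2C and KIF20A fill 20.7% of the NOTCH1-labelled DMSO bar and 44.1% to 62.1% of the others.

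The log2 ratio was larger in NOTCH1-labelled than in MCF10A cells for all 10 genes, among them KIF18B, whose values were under the minimum in every group. The log2 ratio in NOTCH1-labelled cells minus that in MCF10A was at least 1 for 6 of the 8 members at 1 FPKM in all 4 groups. Of 11806 genes 23.3% were at least 1 higher. The median difference of these 8 members was 1.73, and that of the 11806 genes 0.40, so most genes also had the larger ratio in NOTCH1-labelled cells. With KIF4A, which reached 1 FPKM in NOTCH1-labelled cells through the ginkgolic acid group alone, the count was 7 of 9, where 21.5% of 15529 genes measured in both lines were at least 1 higher. KIF20A had the largest difference, 4.94, followed by KIF2C at 2.76 and KIF4A at 2.66. KIF23, KIF14, KIF11 and KIFC1 lay at 1.98, 1.82, 1.65 and 1.46. KIF15, at 0.80, and KIF18A, at 0.24, stayed under 1.

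**Figure D3:**
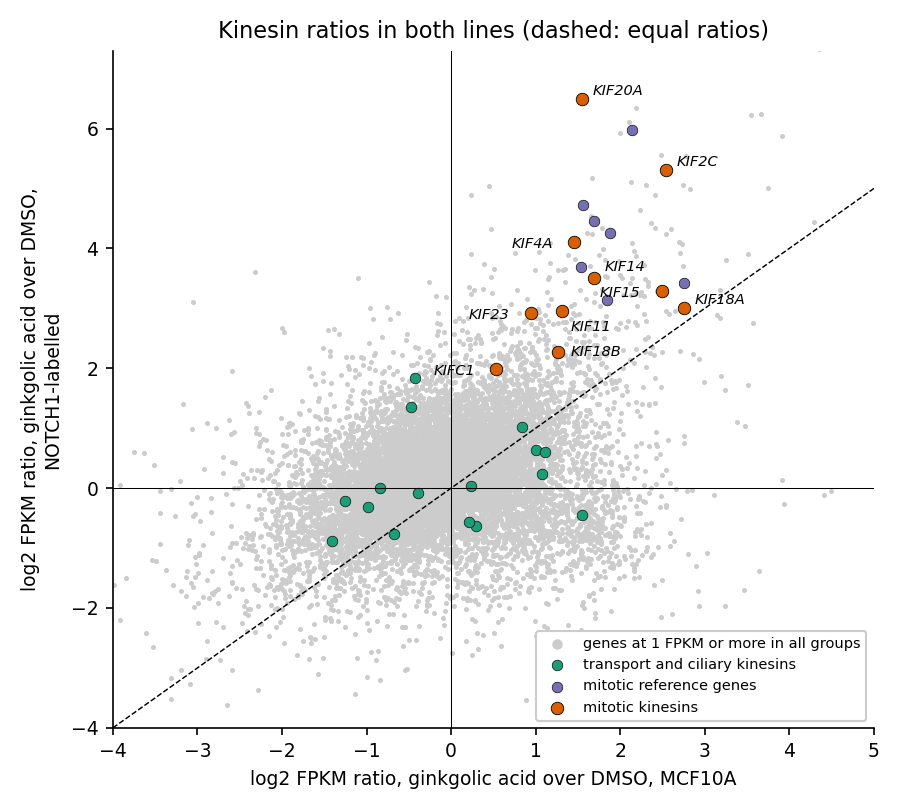
Log2 FPKM ratio of ginkgolic acid over DMSO in MCF10A (x axis) and NOTCH1-labelled cells (y axis), with kinesins in orange, mitotic reference genes in purple, transport and ciliary kinesins in green and other genes that reached 1 FPKM in every group in grey (22 of 11806 lie outside the axes). All 10 kinesins lie above the dashed line of equal ratios, KIF18A (2.76 and 3.00) closest to it.

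The difference can be split into the gap between the DMSO groups and that between the ginkgolic acid groups, both set across separately normalized tables. With ginkgolic acid all 8 members that reached 1 FPKM in every group were higher in NOTCH1-labelled cells, with a median log2 ratio of 1.27, and 5 were at least 2-fold higher, against 15.8% of the 11806 genes. The median gene was at 0.36 in the same comparison, so most of the 11806 genes were higher there too by any amount. Under DMSO 7 of these 8 were lower by any amount, with a median of −0.54, where the median gene, at 0.02, was not lower. At least 2-fold lower were 2 of the 8, KIF20A by 9.09-fold and KIF2C by 2.49-fold, against 8.5% of genes. KIF4A, which stands outside these counts, was 2.44-fold lower in the DMSO pair and at a log2 ratio of 1.37 in the ginkgolic acid pair. For KIF20A the DMSO gap (−3.18) was larger than the ginkgolic acid gap (1.76). KIF14 showed the opposite order, with −0.28 and 1.54. KIF18A was the only one of the 9 measured members higher in NOTCH1-labelled cells in both pairs, at 0.63 and 0.87.

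**Figure D4:**
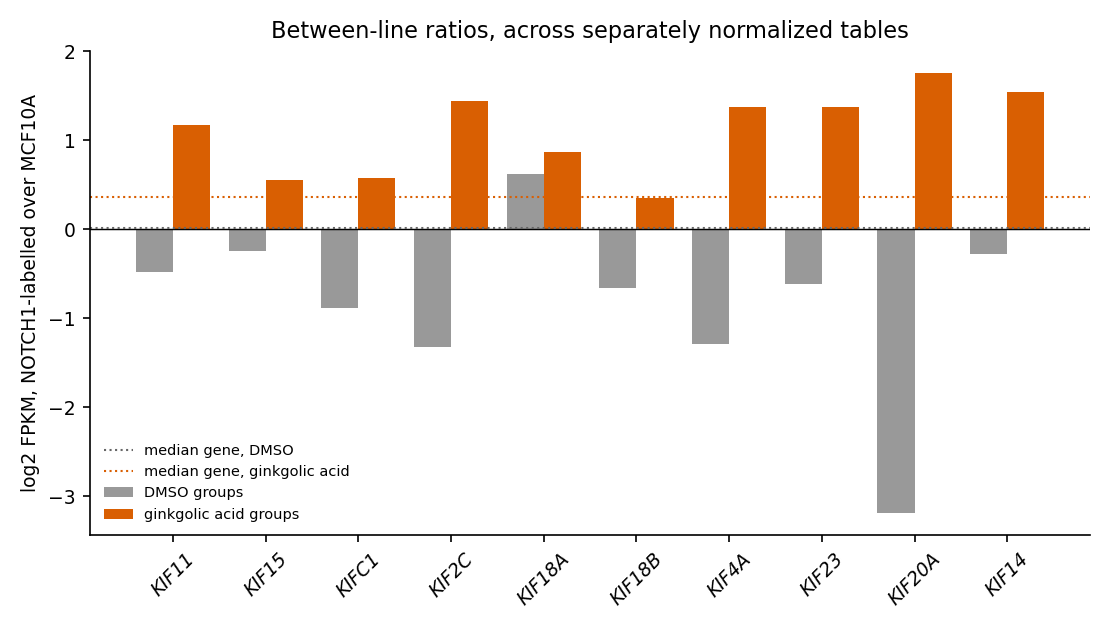
Log2 FPKM of NOTCH1-labelled over MCF10A cells for each kinesin, in the DMSO groups (grey bars) and the ginkgolic acid groups (orange bars), with dotted lines at the median gene (0.02 and 0.36). The grey bars reach from −3.18 for KIF20A to 0.63 for KIF18A, and all orange bars are above 0.

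Of the mitotic kinesins outside the 10, CENPE, KIF20B and KIF22 were measured, and all 3 were at least 2-fold higher in both lines, against 24.3% of genes in MCF10A and 18.9% in NOTCH1-labelled cells. CENPE, a kinetochore motor that carries chromosomes to the plate, was at 15.3 and 3.47 FPKM in MCF10A and at 39.7 and 3.48 in NOTCH1-labelled cells. KIF22, a chromokinesin, was at 21.8 and 9.95 and at 52.1 and 5.41. KIF20B, a relative of KIF20A with a role in cytokinesis, was at 18.0 and 7.10 and at 30.1 and 11.7, with log2 ratios of 1.34 and 1.36. KIF2B was at most 0.301 FPKM, and KIF2A shares a row with IPO11 and LRRC70, at 39.4 and 36.8 FPKM in MCF10A and 52.4 and 33.0 in NOTCH1-labelled cells.

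Transport and ciliary kinesins went both ways. Of 20 measured, 4 were at least 2-fold higher and 3 lower in MCF10A, with a median log2 ratio of 0.22, and 3 were higher and 2 lower in NOTCH1-labelled cells, with a median of −0.13. Of all genes 24.3% were higher and 15.2% lower in MCF10A, and 18.9% each way in NOTCH1-labelled cells, so the MCF10A counts lie near the background. In MCF10A KIF19 reached the minimum through ginkgolic acid alone and could only be higher, and KIF12 through DMSO alone and could only be lower. In NOTCH1-labelled cells KIF17 and KIF19 reached it through DMSO alone and could only be lower. Some single ratios reached those of mitotic kinesins, including members of the 10. In MCF10A KIFC3 was at 2.92-fold, as was KIF20A, and KIF27 at 2.16-fold was above KIF23 at 1.92-fold. KIFC3 and KIF27 were named after their values were seen, and KIFC3 was lower in NOTCH1-labelled cells, at 0.73-fold. In those cells KIF13A was at 3.59-fold beside KIF20B at 2.56-fold. KIF13A, an endosomal motor, was at 9.16 and 12.4 FPKM in MCF10A and at 45.1 and 12.6 in NOTCH1-labelled cells. KIF1B had log2 ratios of −0.48 and 1.35, and KIF13B of 0.84 and 1.02. KIF1A, a carrier of synaptic vesicle precursors in neurons, had −1.41 and −0.87.

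Dynein, the minus-end motor of the cytoplasm, and its activator dynactin centred on −0.42 in MCF10A, where 2 of 20 genes were higher and 4 lower by 2-fold or more, beside 24.3% and 15.2% of all genes. The median was 0.24 in NOTCH1-labelled cells, where 2 were higher and 1 lower, beside 18.9% each way. DYNC1H1, the dynein heavy chain, was at 67.7 and 47.7 FPKM in MCF10A and at 84.1 and 38.4 in NOTCH1-labelled cells. The light chain gene DYNLL1 was lower in both, at 74.7 and 316 and at 117 and 300 FPKM. NDE1, a dynein regulator, had log2 ratios of 0.76 and 1.47, and DCTN4 of 1.18 and 0.98.

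Among spindle and midzone partners of the motors, 16 of 24 were at least 2-fold higher in MCF10A and 21 of 24 in NOTCH1-labelled cells, with 0 lower in either. The shares of all genes were 24.3% and 18.9% higher and 15.2% and 18.9% lower. The medians were 1.64 and 2.87. CDCA8 reached the minimum through the ginkgolic acid group alone in both lines and so could only be higher. TPX2, which targets KIF11 and KIF15 to the spindle, was at 34.3 and 7.28 FPKM and at 75.1 and 3.02. PLK1, a kinase that docks on KIF20A, was at 19.2 and 2.88 and at 64.4 and 1.93. CEP55 of the midbody had log2 ratios of 2.31 and 5.06, and HMMR, a spindle pole protein, of 1.67 and 5.18. MAPRE1, the end-binding protein EB1, and NUMA1 of the poles were less than 2-fold apart in both lines. Their log2 ratios were −0.96 and −0.08 for MAPRE1 and 0.18 and −0.18 for NUMA1.

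Mitotic reference genes served as a scale for the kinesins. All 7 measured were at least 2-fold higher in both lines, against 24.3% and 18.9% of all genes, with medians of 1.84 in MCF10A and 4.27 in NOTCH1-labelled cells. TOP2A was at 111 and 25.0 FPKM and at 313 and 4.95, CDK1 at 191 and 64.9 and at 521 and 19.8, and CCNB1 at 134 and 41.3 and at 377 and 17.2. MKI67 had log2 ratios of 1.84 and 3.15, CDC20 of 1.88 and 4.27, CCNB2 of 1.54 and 3.68, and BUB1 of 2.76 and 3.43. Relative to these medians, KIF20A stood at −0.30 in MCF10A and 2.22 in NOTCH1-labelled cells. KIF2C was above the reference in both lines, by 0.70 and 1.04. KIF18A was above it in MCF10A, by 0.92, and below it in NOTCH1-labelled cells, at −1.26. KIF15 was likewise above it in MCF10A, by 0.65, and below it in NOTCH1-labelled cells, at −0.97. The other 6 members, KIF4A, KIF14, KIF11, KIF18B, KIF23 and KIFC1, were below it in both lines, from −0.15 for KIF14 in MCF10A and KIF4A in NOTCH1-labelled cells to −1.32 and −2.28 for KIFC1.

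Of 8 measured genes of S phase, 0 were at least 2-fold higher in MCF10A and 1 was lower, with a median of −0.46, and 5 were higher in NOTCH1-labelled cells, with a median of 1.20. Of all genes 24.3% were higher and 15.2% lower in MCF10A, and 18.9% were higher in NOTCH1-labelled cells. CDC45, a helicase factor, was at 8.20 and 6.97 FPKM in MCF10A and at 20.8 and 1.38 in NOTCH1-labelled cells. TYMS, MCM7 and MCM4 had log2 ratios of 0.66, −0.33 and −0.59 in MCF10A and of 1.99, 1.40 and 1.25 in NOTCH1-labelled cells.

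Transcription factors of the mitotic programme had medians of −0.03 and 0.37, with 3 of 19 at least 2-fold higher and 3 lower in MCF10A, and 5 of 20 higher and 3 lower in NOTCH1-labelled cells. These counts lie near the shares of all genes, 24.3% higher and 15.2% lower in MCF10A and 18.9% each way in NOTCH1-labelled cells. E2F7 in MCF10A and MYBL2 in NOTCH1-labelled cells reached the minimum through ginkgolic acid alone and could only be higher. In NOTCH1-labelled cells E2F2 and E2F3 reached it through DMSO alone and could only be lower. The MCF10A median turned to 0.08 when the median gene was removed. FOXM1, an activator of G2 and mitotic genes, was at 5.03 and 1.96 FPKM and at 13.5 and 2.55. LIN54, the MuvB subunit that reads the CHR, was at 7.22 and 3.18 and at 12.4 and 3.92, and LIN9, another subunit, had log2 ratios of 0.58 and 1.42. E2F4, which joins MuvB in the DREAM repressor, was lower in both lines, at 10.2 and 37.0 FPKM and at 11.2 and 27.2.

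**Figure D5:**
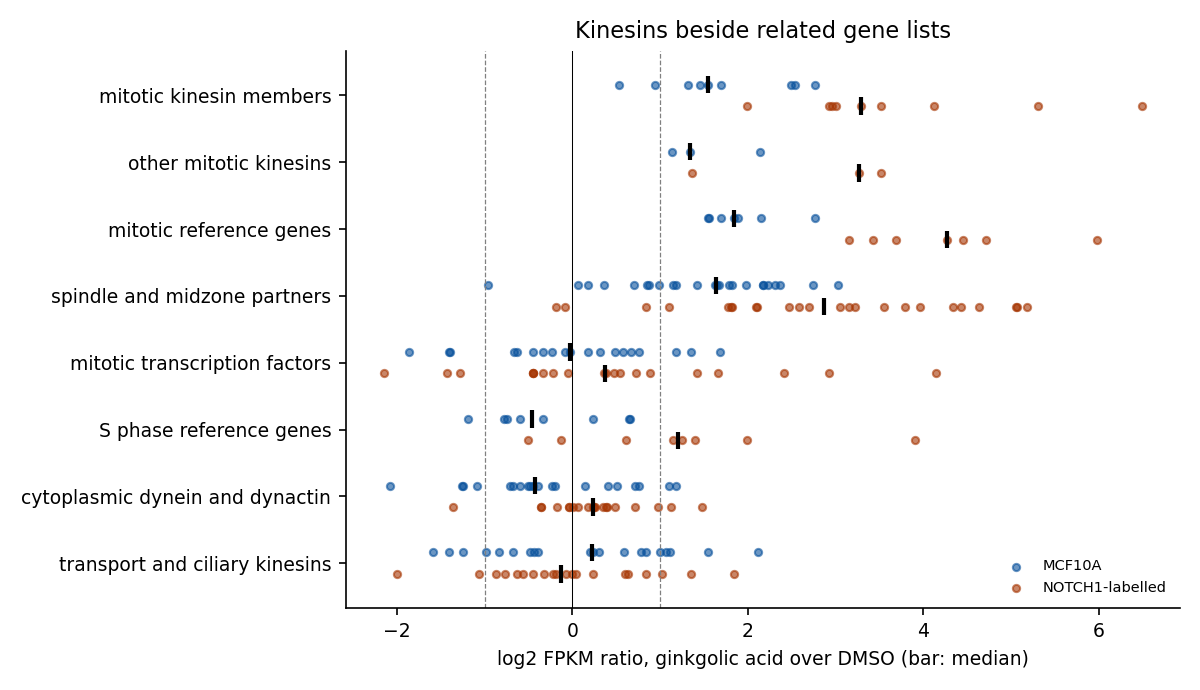
Log2 FPKM ratio of ginkgolic acid over DMSO for each measured gene of 8 lists in MCF10A (blue) and NOTCH1-labelled cells (red-brown), with a black bar at each median and dashed lines at 2-fold. The kinesin medians (1.55 and 3.29) lie between those of the spindle partners (1.64 and 2.87) and the mitotic reference genes (1.84 and 4.27) in NOTCH1-labelled cells and below both in MCF10A, and the medians of the transcription factors, of dynein and of the transport and ciliary kinesins lie within 2-fold of no difference.

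The genes whose pair of ratios lay nearest to the kinesins' medians were sought among 11798 other genes that reached 1 FPKM in every group, by the Euclidean distance of the log2 ratios in the lines, which rests on 2 values per gene. CKS2, a subunit that binds cyclin-dependent kinases, was nearest at a distance of 0.02, with 102 and 35.5 FPKM in MCF10A and 286 and 29.005 in NOTCH1-labelled cells. PTTG1, the gene of securin, followed at 0.17 and the spindle gene TACC3 at 0.28. Genes not known for mitosis were as near, among them TIMP1 at 0.14, HIST2H2BE at 0.23 and DDIT4 at 0.24. GADD45B also lay at 0.24.

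Markers of other cell types were present at unequal levels. Summed FPKM of 6 fibroblast markers was 23.1 under ginkgolic acid and 30.7 in DMSO in MCF10A and 43.1 and 73.1 in NOTCH1-labelled cells. The proteoglycan gene DCN made up 9.11 and 18.0 FPKM of these sums in MCF10A and 31.8 and 63.4 in NOTCH1-labelled cells. The DCN level in NOTCH1-labelled cells under DMSO was thus above the summed kinesins there (24.6 FPKM). The other 5, COL1A1, COL1A2, COL3A1, LUM and PDGFRB, were at most 7.55 FPKM in any group. Sums over the endothelial markers VWF, CDH5 and KDR were 4.45 and 10.7, and 2.75 and 3.63. Of the leukocyte markers, PTPRC was at 3.56 and 2.03 FPKM in MCF10A and at 6.15 and 2.28 in NOTCH1-labelled cells, and CD3E at 2.31 and 0.224 and at 0.413 and 0.902. PECAM1 and CD68 had no usable row, and 0 of the other markers named here were listed at 0 in any group. Their part in the kinesin values was not tested.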

How the data were processed

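Total RNA of 8 samples in 4 groups was sequenced. The submitters' processing notes name the build GRCh37 (hg19) and the tools Cuffdiff 2.1.1, Cufflinks 2.1.1, Bowtie2 2.1.0 and TopHat2 2.0.8b. How the samples of a group were combined, with which annotation and settings, is not given in the sources used here. Per the file headers, the authors deposited 1 FPKM value (fragments scaled by transcript length and library size) per gene and group, in 1 table for each line. Each table was taken as normalized on its own.

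Of the 70227 rows of the MCF10A table and 59662 of the NOTCH1 table, 42970 and 43004 gene rows were kept. Rows that named no gene (15977 and 5455), joined several genes (1575 and 1570), lay outside the main chromosomes, held RNAs under 200 bases by GENCODE release 29, or repeated a symbol were left out. Genes that reached 1 FPKM in either group of a table were taken as measured. Log2 ratios carry no pseudocount. A model across samples had been planned, but the tables hold no values per sample, so a size rule of at least 2-fold stands in for it. The depth is unknown.

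The members and gene lists were chosen with earlier results of these data known. Beside the 10 members, the naming rule took all genes of lists of up to 8, the 4 largest absolute ratios in the NOTCH1-labelled line from longer lists (at least 1 FPKM in all 4 groups), and the 8 genes nearest to the members' median pair of ratios. Other settings tried were a pseudocount of 1 FPKM, no minimum, minima of 5 FPKM in either group or 1 FPKM in both, removal of the median ratio, a 4-fold rule, means, and shares without the most abundant member. Promoter windows are from RefSeq on GRCh38.p14. The ratio and count functions were tested on simulated data. Python 3.11.15, numpy 2.4.6, pandas 2.3.3 and matplotlib 3.10.9 were used. Some genes that met the naming rule are not reported here.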

Additional observations from a re-analysis of the deposited data

Results flagged for a closer look

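PAQR5, which shares the locus of KIF23 in the tables, went in opposite directions in the lines by more than 2-fold. Its log2 ratio of ginkgolic acid over DMSO was −6.36 in MCF10A, from 1.65 and 136 FPKM, and 5.15 in NOTCH1-labelled cells, from 67.7 and 1.91 FPKM. With 1 value per group the difference was not tested. KIF23 itself was higher with ginkgolic acid in both lines, at 13.7 and 7.15 FPKM and at 35.6 and 4.68.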

How the results depend on the processing

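No paired analysis was possible because the tables hold 1 value per gene and group, and for the same reason no replicate could be left out in turn; these planned fits were not run. A pseudocount of 1 FPKM cannot turn a ratio, and removing the median gene (−0.11) can only raise those of MCF10A. In NOTCH1-labelled cells, where that median was 0.14, all 10 kinesins kept a ratio above 1 without it. With a 4-fold in place of a 2-fold rule, the MCF10A count was 3 members in place of 7. KIF18B fell below 2-fold with the pseudocount, at log2 ratios of 0.31 and 0.52. Removing the median gene turned the MCF10A median of the transcription factor list from −0.03 to 0.0781 and that of the endothelial markers from −0.05 to 0.0582. Without KIF2C in the sum, the share of KIF20A was 30.2% with ginkgolic acid and 29.6% with DMSO in MCF10A, and 40.5% and 5.86% in NOTCH1-labelled cells. That a share grows when a member leaves the sum follows from its construction. The unknown depth limits the genes near 1 FPKM most, here KIF18B and the DMSO values of KIF4A, KIF20A and KIF15 in NOTCH1-labelled cells.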

Other observations

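Some genes outside the naming rule, chosen after their values were seen, differed from the group they belong to. KIFC3, a kinesin of epithelial junctions, was at 118 FPKM under ginkgolic acid and 40.6 in DMSO in MCF10A and at 62.3 and 85.0 in NOTCH1-labelled cells. MYBL2, the partner of MuvB that activates mitotic genes, was at 1.34 and 1.42 FPKM in MCF10A and at 6.10 and 0.346 in NOTCH1-labelled cells, a log2 ratio of −0.08 beside one of 4.14. The value of 0.346 was exceeded or matched by 248 of 384 olfactory receptor genes in that group, so the larger ratio starts from the level of silent genes and its size is not reliable. The kinesins were higher with ginkgolic acid in both lines. PCNA, a marker of S phase, was at 25.2 and 57.1 FPKM in MCF10A and at 27.8 and 30.3 in NOTCH1-labelled cells.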
